A study of Mus musculus with 9 samples.

Results

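The complement genes C3, C4b, C1ra, Cfb, Cfd and Serping1 were followed in RNA-seq libraries of ASCs and FAPs, 6 genes chosen by name out of the 26214 in the table. Complement is a cascade of secreted proteases and their substrates that marks targets, recruits leukocytes and opens membranes. The classical pathway starts with C1q and its proteases C1r and C1s, which cleave C4 and C2. The alternative pathway needs factor B and factor D, and both pathways meet at the cleavage of C3. The liver makes most of the plasma pool, fibroblasts and adipose stroma make components locally, and mature adipocytes are known for secreting factor D (adipsin).

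RNA was sequenced from ASCs of ScAT and FAPs of the quadriceps of male C57Bl/6J mice aged 8 to 12 weeks, each sorted magnetically as CD31−/CD45−/Sca-1+ cells at 1 dpi. ASCs (n = 3 libraries) and FAPs (n = 2) came from mice given NaCl in the quadriceps, and injured FAPs (n = 3) from mice given 50% glycerol, which destroys myofibers. CD31+CD45+ cells of injured muscle gave 1 library, which entered no test. The study's methods describe triplicates per condition. Its reporting summary says that they came from a pool of cells of 3 animals, and calls the data biological replicates. Whether each library came from a pool of its own is not stated, so p-values measure only the spread between these libraries. Reads on genes numbered 27349184 to 27481573 in ASCs, 24052508 and 24164447 in FAPs, 26698572 to 27028114 in injured FAPs and 13091077 in CD31+CD45+ cells. The values are read counts divided by a size factor per library, called normalized counts below.

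The stromal identity of the sort was visible in Pdgfra, which measured 10837, 15083 and 13043 normalized counts in ASCs, 17754 and 17756 in FAPs, 23649, 25268 and 23236 in injured FAPs and 119.3 in CD31+CD45+ cells. One library stood apart. Injured FAP replicate 2 held 3775 normalized counts summed over 15 leukocyte genes, against 884.3 and 784.1 in the other injured FAP libraries. In the FAP libraries 13 of these 15 genes were listed at 0, and nearly the whole sum came from Cd68, with 253.9 and 477.0. Such zeros also occurred where reads were plentiful elsewhere. Both FAP libraries listed exactly 0 for 13 genes with at least 20 reads in each ASC and injured FAP library, against 3 such genes at 0 in ASCs and 0 in injured FAPs. Among the 13, picked once their values had been seen, were Plvap (372 to 627 reads elsewhere), Cd14 (112 to 668), Csf1r (34 to 212) and Lyz2 (23 to 935), and Pecam1 had 205 reads in FAP replicate 1 and 0 in replicate 2. How these zeros arose was not tested, and folds against them are doubtful.

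C3, the protein on which every activation route converges, is encoded on the minus strand at chr17:57203970-57228136 (GRCm38). It reached 515965, 446295 and 495854 normalized counts in the ASC libraries, 63347 and 54639 in FAPs and 40414, 40567 and 30060 in injured FAPs. The 3 groups did not overlap, and the CD31+CD45+ library was far below them at 792.6. C3 stood at rank 6 or 7 among all genes in each ASC library and at ranks 36 to 56 in the FAP and injured FAP libraries. Its promoter is shown because the activation routes meet at C3 (RefSeq, GRCm38.p6, minus strand, chr17:57228087-57228386, from 250 bases before the start to 50 after it).
C3 promoter: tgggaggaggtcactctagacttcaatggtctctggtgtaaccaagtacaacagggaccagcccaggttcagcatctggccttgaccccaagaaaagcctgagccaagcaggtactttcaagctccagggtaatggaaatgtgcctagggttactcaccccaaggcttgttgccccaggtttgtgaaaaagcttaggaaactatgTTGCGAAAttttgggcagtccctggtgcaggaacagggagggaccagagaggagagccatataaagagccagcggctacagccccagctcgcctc
The capitals mark the match to a C/EBP type motif, TTGCNNAA, which begins 45 bases before the start. Such a match occurred in 10.8% of the 32851 promoters of this length, searched on both strands. A STAT type motif (TTCNNNGAA, in 8.3% of promoters), an interferon response type motif (in 3.44%) and an NF-kB type motif (in 0.411%), the last 2 of 10 letters each, had no match in this window. A match is a description of letters and says nothing about binding.

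C1ra encodes C1r, the protease that activates C1s within the C1 complex, on the plus strand at chr6:124512405-124523443. Its values were 36603, 28230 and 35969 normalized counts in ASCs, 12926 and 11273 in FAPs and 6168, 5408 and 5472 in injured FAPs. ASCs were highest and injured FAPs lowest, without overlap. C1s1, the gene of its partner protease, lies 6901 bases away on the opposite strand, and had 47854, 39900 and 49433 normalized counts in ASCs, 17118 and 16644 in FAPs and 8604, 8328 and 8124 in injured FAPs. The ratio of C1ra to C1s1 within a library stayed between 0.649 and 0.765 in these 8 libraries. Because these neighbours moved together, both promoters are given (RefSeq, GRCm38.p6, C1ra on the plus strand at chr6:124512371-124512670 and C1s1 on the minus strand at chr6:124542310-124542609).
C1ra promoter: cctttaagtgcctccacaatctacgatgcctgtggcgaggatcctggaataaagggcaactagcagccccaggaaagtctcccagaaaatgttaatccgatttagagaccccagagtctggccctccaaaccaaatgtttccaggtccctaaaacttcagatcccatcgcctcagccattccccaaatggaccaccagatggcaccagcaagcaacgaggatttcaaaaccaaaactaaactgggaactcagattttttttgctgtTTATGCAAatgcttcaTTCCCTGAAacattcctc
C1s1 promoter: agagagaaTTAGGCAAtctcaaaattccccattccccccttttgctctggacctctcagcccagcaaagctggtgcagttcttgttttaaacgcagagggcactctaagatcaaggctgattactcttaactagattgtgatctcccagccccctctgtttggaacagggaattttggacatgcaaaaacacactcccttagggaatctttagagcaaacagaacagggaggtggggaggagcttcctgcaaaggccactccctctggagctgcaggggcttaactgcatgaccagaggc
Capitals again mark matches to the motifs named above. In C1ra a C/EBP type match on the minus strand began 16 bases after the RefSeq start and a STAT type match 32 bases after it, without overlap, and this start lies 216 bases inside the GENCODE gene. In C1s1 a C/EBP type match on the minus strand began 242 bases before the start. Another RefSeq promoter of C1s1, chr6:124542272-124542571, had no match, and its start lies 38 bases inside the GENCODE gene. RefSeq promoters were found for 3 of the 6 genes (C3, C1ra and Cfd).

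C4b encodes complement C4, which C1s cleaves, on the minus strand at chr17:34728380-34743882. ASC libraries held 82000, 54559 and 67050 normalized counts, FAPs 5084 and 4352, and injured FAPs 2200, 1868 and 1705. The gap between ASCs and the others was the widest among the 6 genes on the log2 scale, and the groups did not overlap. C4b and C1ra have near copies, so part of their reads could be shared. Of the 100-base words of C4b transcripts 15.2% also occur in C4a, and of those of C1ra 34.5% occur in C1rb. The ratio of C4a to C4b was 0.00274 to 0.0161 and that of C1rb to C1ra 0.00213 to 0.0146, so the copies held few of the counts assigned.

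Factor B, the protease subunit of the alternative pathway convertase, is encoded by Cfb on the minus strand at chr17:34856374-34862518. Cfb had 15541, 15453 and 14407 normalized counts in ASCs, 3636 and 3696 in FAPs and 7448, 7782 and 7526 in injured FAPs. It differed from the genes above in that injured FAPs lay between FAPs and ASCs, without overlap. Cfd, on the plus strand at chr10:79890853-79892655, encodes factor D, which cleaves factor B. It was low throughout, with 96.2, 39.6 and 25.1 normalized counts in ASCs, 5.71 and 3.76 in FAPs and 1.57, 7.75 and 0 in injured FAPs. These came from 73, 35 and 20 reads in ASCs, 6 and 4 in FAPs and 2, 10 and 0 in injured FAPs, and FAPs and injured FAPs overlapped.

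Serping1 encodes the C1 inhibitor, which inactivates C1r and C1s, on the minus strand at chr2:84765387-84775444. It reached 262086, 181517 and 213230 normalized counts in ASCs, 102167 and 96528 in FAPs and 29110, 28016 and 27296 in injured FAPs. The order was that of C1ra, the gene of one of its targets, with ASCs highest and injured FAPs lowest and no overlap.

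**Figure D1:**
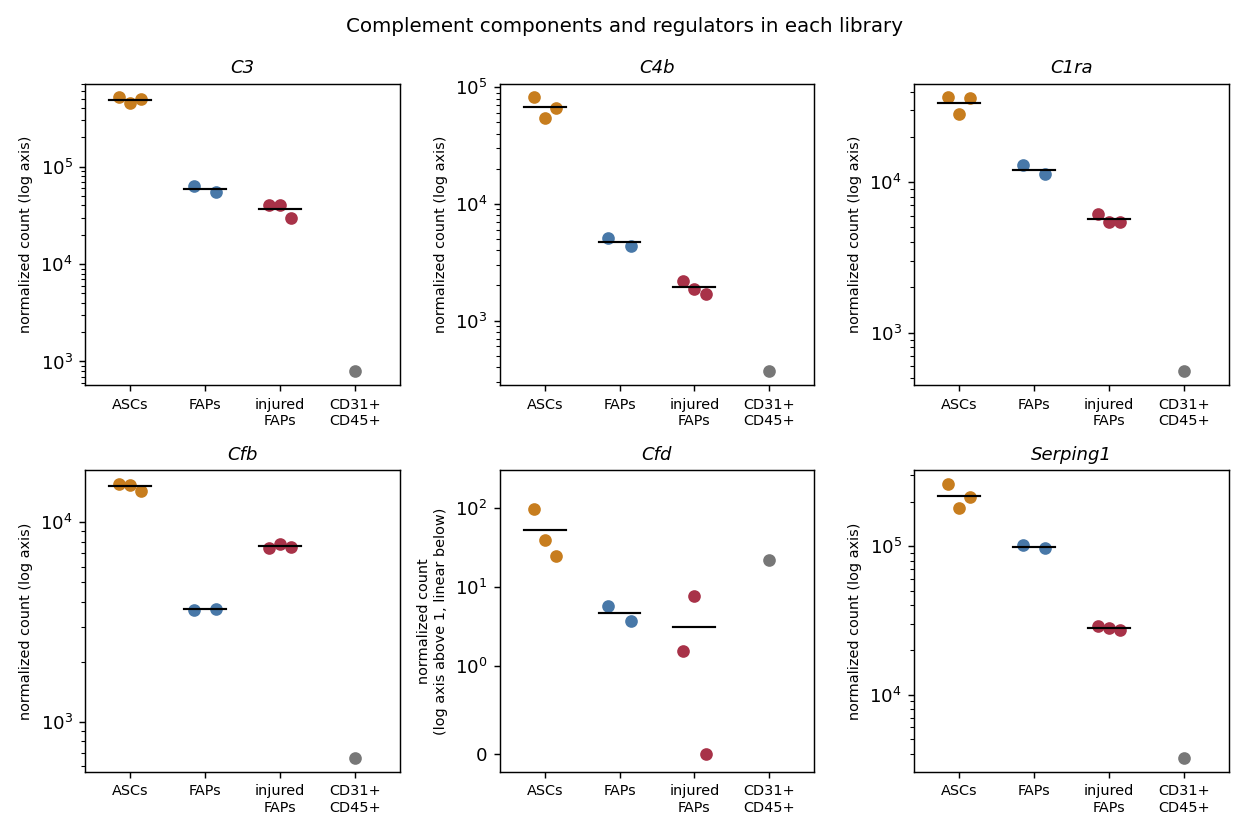
Normalized counts of the 6 genes in each library, on log axes (for Cfd linear below 1). Points are libraries, black lines group means, and the CD31+CD45+ library has no replicate. Cfb is the gene for which injured FAPs lie above FAPs without overlap, at 7448 to 7782 against 3636 and 3696.

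Per kilobase of the longest coding transcript, Serping1 (123837 ± 22956 SD, n = 3) led in ASCs without overlap with C3 (94634 ± 6982). That lead rests on 1768 bases for Serping1, whose exons cover 2325, and 5136 for C3, whose exons cover 5143. The order of Serping1 and C3 in ASCs depends on the length used. C4b (12617 ± 2554) and C1ra (11272 ± 1564) followed, and their libraries overlapped. Cfb stood at 5501 ± 229.4 and Cfd at 58.2 ± 40.7 per kilobase. In FAPs (n = 2) the order was Serping1 at 56192 ± 2255, C3 at 11486 ± 1199, C1ra at 4059 ± 392.1, Cfb at 1333 ± 15.5, C4b at 877.2 ± 96.3 and Cfd at 5.13 ± 1.49. In injured FAPs (n = 3) Cfb, at 2757 ± 63.7, stood above C1ra, at 1906 ± 141.4. Serping1 (15917 ± 516.7) and C3 (7207 ± 1173) were above both, and C4b (357.8 ± 46.9) and Cfd (3.37 ± 4.44) below them. Together the 6 genes took 2.34% to 2.52% of all reads in ASCs, 0.750% and 0.818% in FAPs, 0.350% to 0.404% in injured FAPs and 0.0298% in CD31+CD45+ cells.

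ASCs and FAPs of non-injured muscle were compared to ask how the sorted stroma of the 2 tissues differs without muscle injury. Per the study's methods ScAT and muscle were digested with different enzymes, so tissue and digestion cannot be told apart. C4b was 14.4-fold, C3 8.24-fold, Cfb 4.13-fold, C1ra 2.78-fold and Serping1 2.2-fold higher in ASCs, by the ratio of group means. These are the 5 members that averaged at least 10 normalized counts in each group, and each passed the test of limma with Benjamini-Hochberg adjustment (13601 genes tested, adjusted p below 0.05, absolute log2 fold change above 0.58). On the log2(normalized count + 1) scale the difference was 3.83 ± 0.17 (SE, adjusted p = 1.11e-07) for C4b, 3.04 ± 0.18 (5.8e-07) for C3 and 2.04 ± 0.09 (1.02e-07) for Cfb. It was 1.47 ± 0.14 for C1ra (limma, adjusted p = 1.01e-05) and 1.12 ± 0.17 for Serping1 (adjusted p = 0.000279), which missed the fold threshold with scaling by library total (0.56). Quantile normalization lowered the differences to 2.96 for C4b, 2.08 for C3, 1.40 for Cfb and 0.68 for C1ra. Across all genes tested 47.2% passed, with 23.4% higher and 23.8% lower in ASCs.

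Cfd passed the filter on low values only through ASCs, so its difference of 3.05 ± 0.86 (SE, limma adjusted p = 0.011) is a description. Without FAP replicate 2 it was 2.81 (adjusted p = 0.0703, against 0.000404 to 0.0703 over the alternatives), and with a pseudocount of 8 it was 2.11. Adipoq, a defining adipocyte gene, moved with it, at 44.8, 44.2 and 37.7 normalized counts in ASCs, 0.951 and 8.47 in FAPs and 1.57, 0.775 and 0 in injured FAPs. Of 12 adipocyte genes 6 were tested, 3 higher and 3 lower in ASCs than in FAPs, and 2 of the 3 higher ones reached the filter only through ASCs. The list summed to 1348 to 1499 for ASCs, 2441 and 2490 for FAPs and 504.9 to 584.3 for injured FAPs, led by Pnpla2, and Cidea was at 0 in all 3 ASC libraries. The study's methods remove floating adipocytes from digested ScAT before the sort, and whether adipocyte RNA had a part in the Cfd values was not tested. In sorted bulk samples fewer cells of a type and less RNA per cell cannot be told apart.

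Among 51 other complement genes 31 were tested and 9 were at 0 in all 8 libraries. In ASCs 14 were higher, 7 lower and 10 not past the test. Of the 14, 6 reached the filter only through ASCs or only through injured FAPs, and of the 7, 2 only through FAPs. With the filter at a mean of 50, 7 of 15 were higher and 4 lower. The 14 include C1qa, C1qb, C1qc and Itgb2, at 0 in FAPs, and the 3 C1q genes lost their calls with a pseudocount of 8 and with edgeR (11 higher each). C1qc kept its call under only 6 of 16 alternatives. Of the 11 leukocyte genes tested 6 were higher and 0 lower in ASCs, and all 6 were at 0 in both FAP libraries. The part of leukocyte genes in the complement calls was not tested. The 31 other complement genes had a median log2 fold change of 1.43, against 0.005 over all genes tested. Their median was 0.61 with the 5 of them that were at 0 in FAPs set at a floor of 3 reads. Scaling by library total, chosen after seeing the data, put the median of all genes at −0.557 and gave 13 higher and 11 lower, and over all genes 1594 higher and 6316 lower in place of 3183 and 3233. Beside C1s1, the classical pathway protease gene C2 was higher in ASCs (log2 fold change 2.03), as were C4a (2.34) and C1rb (2.97), the near copies of C4b and C1ra. C7 of the terminal pathway was higher in ASCs too (1.53). Hc, which encodes C5 (2.91), and C6 (3.89) reached the filter only through ASCs, so their differences are descriptions. The regulators were split. Cd55, which accelerates the decay of convertases on the cell surface, rose by 1.82, and Csmd1 by 2.69. Clu, which binds terminal complexes, had a log2 fold change of −2.41.

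**Figure D2:**
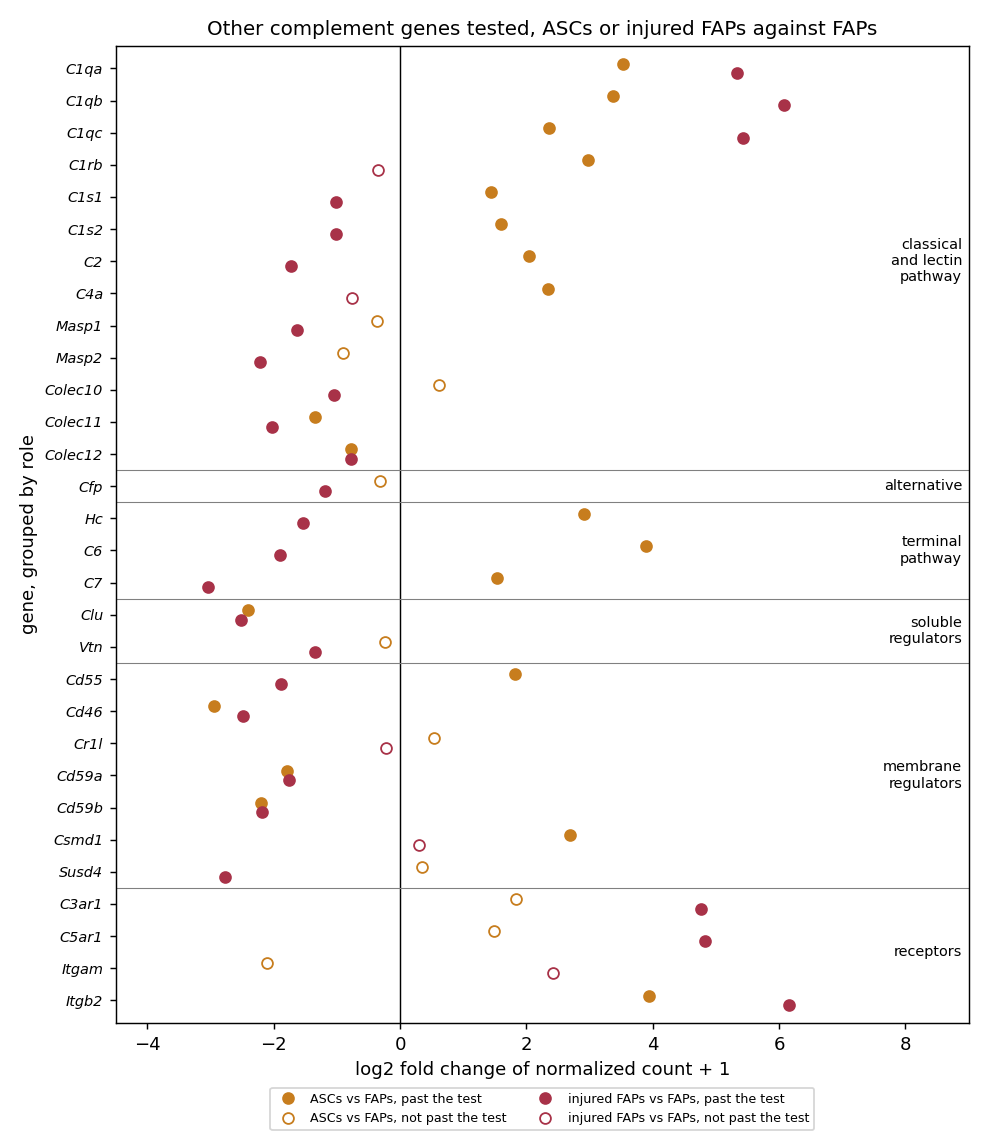
Log2 fold changes on the log2(normalized count + 1) scale of 30 of the 31 other complement genes tested, in ASCs and in injured FAPs, each against FAPs. Filled points passed the test. Of the 31 genes 14 were higher and 7 lower in ASCs, and 6 were higher and 20 lower in injured FAPs. Both comparisons share the FAP libraries.

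Injured and non-injured FAPs were compared to ask how FAPs change 1 day after glycerol. C3, C4b, C1ra and Serping1 were lower after injury and Cfb was higher. Serping1 was 3.53-fold, C4b 2.45-fold and C1ra 2.13-fold lower, while Cfb was 2.07-fold higher, by the ratio of group means. On the log2(normalized count + 1) scale Serping1 fell by 1.82 ± 0.17 (SE, limma adjusted p = 8.98e-06) and C4b by 1.30 ± 0.17 (adjusted p = 8.98e-05). C1ra fell by 1.09 ± 0.14 (limma adjusted p = 6.42e-05), and Cfb rose by 1.05 ± 0.09 (adjusted p = 5.13e-06). Of all genes tested 52.6% passed, 24.9% as higher and 27.7% as lower after injury. Cfd had a difference of −1.0 ± 0.86 and a 95% interval of −2.92 to 0.91 (limma adjusted p = 0.324), so no change was detectable at 0 to 10 reads per library. The Cfd difference was −1.82 without injured FAP replicate 2 (limma adjusted p = 0.0591) and −0.25 without injured FAP replicate 3 (adjusted p = 0.793).

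The fall of C3 was smaller and depended on the settings. Its mean was 1.59-fold lower in injured FAPs, a log2 difference of −0.68 ± 0.18 (SE, limma adjusted p = 0.00765). After quantile normalization the difference was −0.13 (adjusted p = 0.482, against 8.73e-05 to 0.482 over the alternatives). It also missed the test without FAP replicate 1 (−0.58, adjusted p = 0.0695), without injured FAP replicate 3 (−0.54, adjusted p = 0.0427) and with scaling by library total (−0.55). The direction was the same under each alternative tried.

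**Figure D3:**
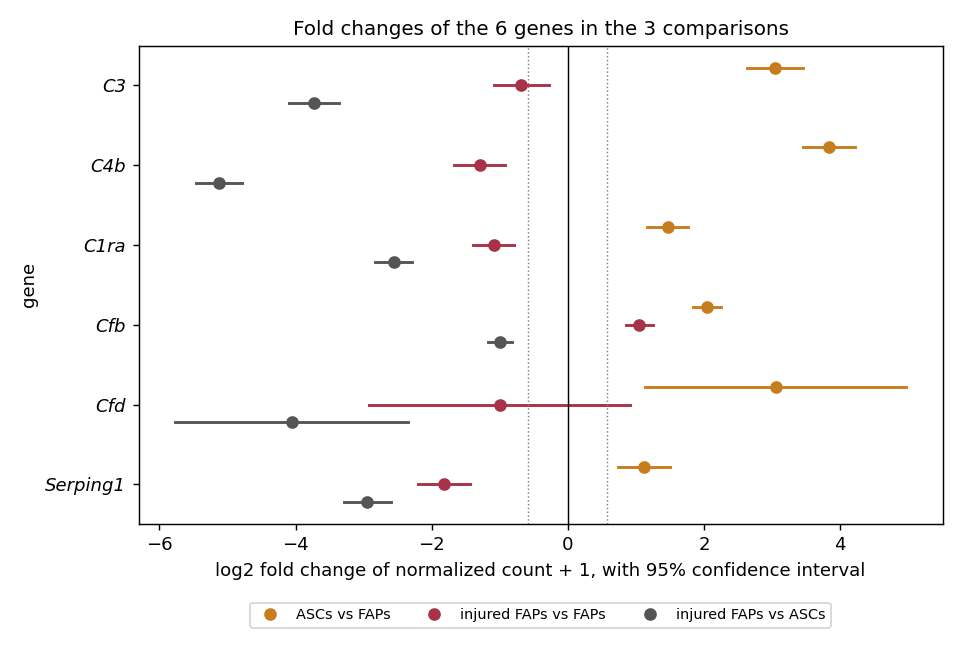
Log2 fold changes of the 6 genes in the 3 comparisons, on the log2(normalized count + 1) scale with 95% confidence intervals from limma; dotted lines mark 0.58 in either direction. Injured FAPs lie below FAPs for C3, C4b, C1ra and Serping1 and above them for Cfb, and the interval of Cfd in this comparison includes 0.

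Cfb and C2 went opposite ways after injury although they are neighbours. C2, the classical pathway counterpart of factor B, lies 85 bases from Cfb on the same strand. It had 17867, 12086 and 12178 normalized counts in ASCs, 3295 and 3447 in FAPs and 1080, 910.6 and 1084 in injured FAPs. Thus C2 fell by 1.72 ± 0.17 on the log2 scale (SE, limma adjusted p = 1.04e-05) where Cfb rose. The ratio of Cfb to C2 within a library, which needs no size factor, was 0.870 to 1.28 for ASCs, 1.07 and 1.10 for FAPs and 6.89 to 8.55 for injured FAPs. Injured FAPs did not overlap the other groups, which overlapped each other. GENCODE also annotates Gm20547 on this strand, which overlaps 79.5% of the exonic bases of Cfb, and C2 has 42.8% of its exonic bases overlapped by Gm20547 or Zbtb12. The table has no row for Gm20547, and reads from it could not be told apart from those of Cfb or C2. Cfb and C2 transcripts share no 100-base word.

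**Figure D4:**
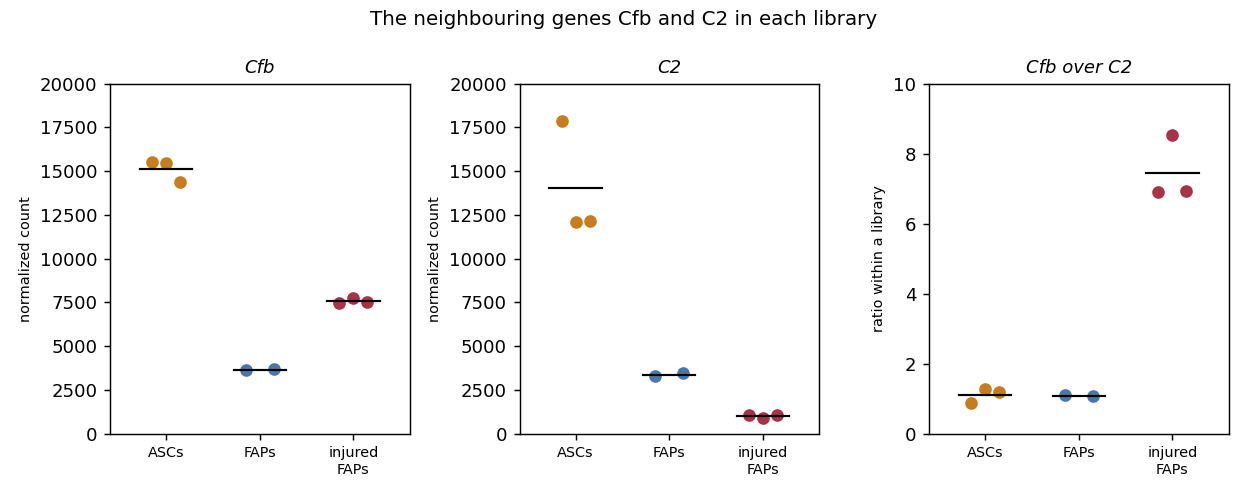
Normalized counts of the neighbouring genes Cfb and C2 and their ratio within each library, on linear axes from 0. Points are libraries and black lines group means. The ratio is 6.89 to 8.55 in injured FAPs and 0.870 to 1.28 in the other libraries.

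Of the 31 other complement genes tested 6 were higher and 20 lower in injured FAPs, with 5 not past the test. The 6 that were higher reached the filter only through injured FAPs, and 3 of the 20 only through FAPs. With the filter at a mean of 50, 0 of 15 were higher and 11 lower. The median was −1.18, against −0.051 over all genes tested, and −1.05 with 7 genes at 0 in one group set at the floor. C7 fell the most among those with a mean of at least 100, from 13806 and 17470 normalized counts in FAPs to 2089, 1681 and 1919 in injured FAPs (log2 fold change −3.04). C1s1 (−1.02) and the regulators Clu (−2.53) and Cd55 (−1.89) were lower too, as were Masp1 (−1.63), Vtn (−1.34), Cfp (−1.18) and Colec12 (−0.77). The call of Cfp was lost without FAP replicate 2 (−0.99, limma adjusted p = 0.0948). C4a (−0.75), C1rb (−0.35), Cr1l (−0.23) and Csmd1 (0.31) did not pass. C4a passed as lower under 4 alternatives (adjusted p = 0.0206 to 0.0478), and Csmd1 as higher after quantile normalization (0.73, adjusted p = 0.0417).

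The 6 that were higher were C1qa, C1qb, C1qc, C3ar1, C5ar1 and Itgb2, named here after their values were seen. They encode the chains of C1q, receptors of C3a and C5a, and a chain of the complement receptors CR3 and CR4. C1qb was at 0 in both FAP libraries, 11.9, 9.06 and 7.53 in ASCs and 39.2, 214.7 and 35.1 in injured FAPs. Against a floor of 3 reads per library (2.85 normalized counts in FAPs) the injured mean was at least 33.8-fold higher for C1qb, 22.2-fold for C1qa, 22.6-fold for C1qc, 13.2-fold for C3ar1, 14.2-fold for C5ar1 and 31.3-fold for Itgb2. Injured FAP replicate 2 held the most of each. Without it the bounds were 13.0-fold for C1qb, 7.42-fold for C1qa, 8.03-fold for C1qc, 5.01-fold for C3ar1, 5.16-fold for C5ar1 and 15.2-fold for Itgb2. C1qc, C3ar1 and C5ar1 then missed the filter, and 3 of 27 other complement genes were higher and 18 lower. Since these genes reached the filter only through injured FAPs, their differences are descriptions. The bounds hold only if the FAP zeros stand for fewer than 3 reads, and how those zeros arose was not tested.

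Leukocyte genes moved with this group. Of 15 listed 11 were tested, and 10 rose after injury, 6 of which reached the filter only through injured FAPs. The 10 were at exactly 0 in both FAP libraries, so their folds are doubtful. Cd68, the other gene tested, had a log2 fold change of −0.32 (limma adjusted p = 0.519). Their summed level was 548.2 to 661.3 normalized counts in ASCs, 259.6 and 488.3 in FAPs, 884.3, 3775 and 784.1 in injured FAPs and 36575 in CD31+CD45+ cells. Ptprc (CD45), the marker used to deplete leukocytes, was at 0 in FAPs, 0 to 1.13 in ASCs and 11.8, 55.8 and 9.92 in injured FAPs. The most abundant gene of the list was Lyz2 in injured FAP replicate 2 (724.6) and Cd68 in the others (211.8 and 183.1). The part of leukocyte RNA in the C1q and receptor values was not tested. For the 6 members the CD31+CD45+ library lay below each ASC, FAP and injured FAP library, except for Cfd at 22.0.

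**Figure D5:**
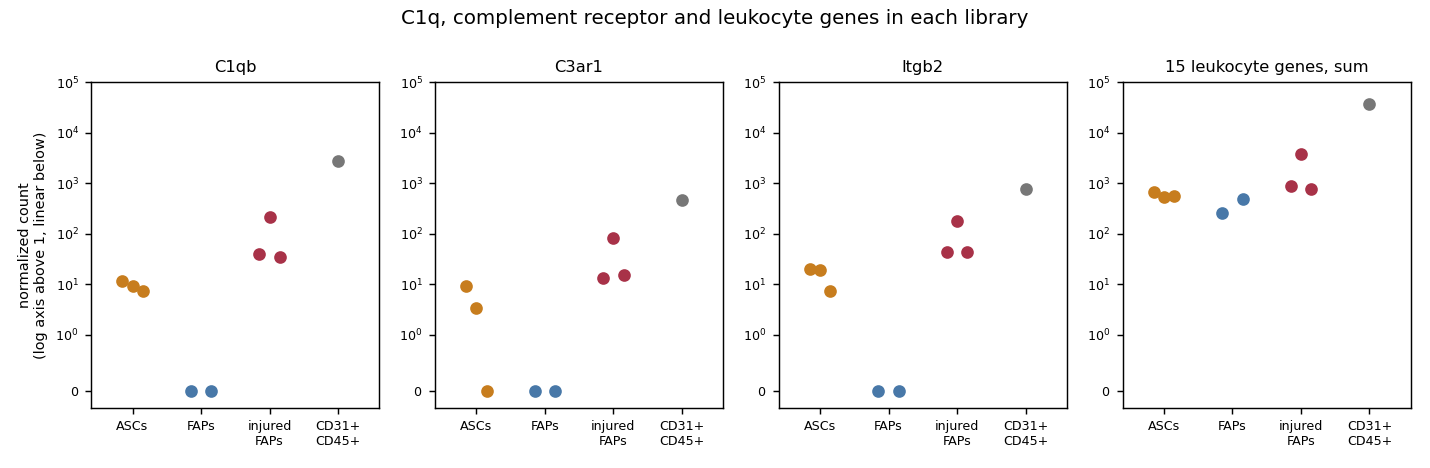
Normalized counts of C1qb, C3ar1 and Itgb2 and the sum of 15 leukocyte genes in each library, on axes that are logarithmic above 1 and linear below. Points are libraries. The 3 complement genes are at 0 in both FAP libraries, and injured FAP replicate 2 is the highest injured FAP library in each panel.

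Markers of other cells differed between the groups as well, and their part in the fall of the complement genes was not tested. Smooth muscle and pericyte genes summed to 1164 to 1614 normalized counts for ASCs, 15895 and 18944 for FAPs and 5590 to 5984 for injured FAPs, and 8 of 8 were lower in injured FAPs, 1 of them past the filter only through FAPs, with Rgs5 leading the list there. Skeletal muscle fibre genes (118.9 to 156.8 in ASCs, 882.4 and 1037 in FAPs, 256.3 to 324.7 in injured FAPs) had 5 of 8 tested lower after injury, 3 of which reached the filter only through FAPs. Satellite cell genes (3.77 to 10.2, 284.3 and 401.7, 212.3 to 274.6) had 1 of 3 lower, which reached it only through FAPs. Adipocyte genes, with the sums above, had 5 of 6 tested lower after injury, 1 of which reached the filter only through ASCs. Schwann cell genes (847.4 to 1213, 1074 and 1851, 408.4 to 695.2) had 3 of 6 lower. Endothelial genes (9936 to 11628, 16343 and 18307, 10134 to 12270) had 3 higher and 6 lower of 13 tested, and the 3 were at exactly 0 in both FAP libraries, with 2 past the filter only through injured FAPs. Mesothelial genes (58.9 to 372.8, 52.3 and 63.0, 63.5 to 83.1) had none past the test of 2. Of 8 stromal genes 1 was higher and 4 lower after injury, and their sum was 2744130 to 3153980 for ASCs, 1549660 and 1680680 for FAPs and 660864 to 740092 for injured FAPs. Set against Col1a1, which led that list in 7 of the 8 libraries, C3 had a ratio of 0.332 to 0.370 for ASCs, 0.0606 and 0.0867 for FAPs and 0.123 to 0.147 for injured FAPs.

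Injured FAPs were also compared with ASCs directly, where tissue, digestion and injury differ together. C4b was 35.3-fold, C3 13.1-fold, Serping1 7.78-fold, C1ra 5.91-fold and Cfb 2-fold lower in injured FAPs, by the ratio of group means. The log2 difference was −5.13 ± 0.15 for C4b (SE, limma adjusted p = 7.26e-09) and −3.73 ± 0.16 for C3 (4.82e-08). It was −2.94 ± 0.15 for Serping1 (limma adjusted p = 1.3e-07) and −2.56 ± 0.12 for C1ra (8.14e-08). After quantile normalization these were −4.47 for C4b, −2.21 for C3, −2.06 for Serping1 and −1.90 for C1ra, and with scaling by library total −4.43, −3.03, −2.25 and −1.86. The smallest difference was that of Cfb, −1.0 ± 0.08 (limma adjusted p = 2.37e-06), which missed the fold threshold after quantile normalization (−0.43) and with scaling by library total (−0.30). For Cfd, which passed the filter only through ASCs, it is a description, −4.05 ± 0.77 (limma adjusted p = 0.00091), −4.87 without injured FAP replicate 2, −3.31 without injured FAP replicate 3 and −2.36 with a pseudocount of 8. Of all genes tested 50.8% passed, 25% as higher and 25.8% as lower. Of the other complement genes 6 were higher, 18 lower and 7 not past the test, with a median of −1.01 against 0.021. The 6 reached the filter only through injured FAPs, and 2 of the 18 only through ASCs. Without injured FAP replicate 2, 2 of 27 were higher and 18 lower, and with the filter at a mean of 50, 0 of 15 were higher and 12 lower. With scaling by library total, which put the median of all genes at 0.715, these were 10 higher and 12 lower, and over all genes 7377 higher and 1692 lower in place of 3405 and 3504. C7 (−4.57), C2 (−3.75) and Cd55 (−3.71) were among the lower genes. Clu (−0.12) and Colec12 (0.01) did not pass, though Colec12 passed as higher with scaling by library total (0.71).

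Acute phase and cytokine genes were set beside complement. Of 13 listed 10 were tested, with 7 higher and 0 lower in ASCs and 6 higher and 0 lower in injured FAPs, both against FAPs, and 3 higher and 5 lower in injured FAPs against ASCs. Of the 7, 1 reached the filter only through ASCs, and of the 6, 1 only through injured FAPs. The same holds for 1 of the 5 (ASCs) and 1 of the 3 (injured FAPs). Of the 5, Ptx3, Il6 and Steap4 lost their calls under 2, 5 and 8 of 18 alternatives, each after quantile normalization and with scaling by library total. Leaving out ASC replicate 1 gave −0.54 for Il6 and leaving out injured FAP replicate 2 gave −0.55, and Steap4 lay between −0.58 and −0.55 without ASC replicate 1 or 2 or injured FAP replicate 1 or 3. Ptx3, a soluble pattern recognition protein that binds C1q, rose from 985.1 and 579.5 normalized counts in FAPs to 18357, 17513 and 16854 in injured FAPs and stood at 26306, 30861 and 28633 in ASCs. Il6, Serpina3n and Saa3 likewise exceeded their FAP levels, by 4.49, 1.80 and 1.69 on the log2 scale in ASCs and by 3.84, 1.32 and 5.21 after injury. The call of Saa3 in ASCs was lost under 6 alternatives, among them without FAP replicate 1 (1.83, limma adjusted p = 0.0856) and without FAP replicate 2 (1.54, adjusted p = 0.143). Without ASC replicate 2, which held the most Saa3 of the ASC libraries, it was 0.96 (adjusted p = 0.0414). Lcn2 was higher in injured FAPs (2.09) and had −1.22 in ASCs, which did not pass. Its call in injured FAPs was lost without FAP replicate 2 (1.61, limma adjusted p = 0.0509), and Lcn2 passed as lower in ASCs under 4 alternatives, among them without that library (−1.70, limma adjusted p = 0.0461) and without ASC replicate 2 (−1.73, adjusted p = 0.00332). Steap4 was higher in ASCs (1.03, though 0.32 after quantile normalization and 0.46 with scaling by library total, both short of the fold threshold) and Cp (0.53) did not pass there except without ASC replicate 2 (0.59), nor did either in injured FAPs (0.44 and 0.01).

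Across the 8 libraries the gene closest to C1ra was C1s1, by the root mean square difference of centred log2(normalized count + 1) values, at 0.077 among 10592 genes with a mean of at least 100. Slit3 (0.080) and Ppp1r15a (0.087) came next. Pla1a (0.159), Osr2 (0.164) and Hpse (0.221) were closest to C3, and Olfm2 (0.159), Sema3e (0.277) and Bmp7 (0.344) to C4b. Cfb was followed by Zc3h12a (0.098), Ggct and Dtnbp1 (both 0.136), and Serping1 by Rnase4 (0.104), Gpx3 (0.112) and Tcn2 (0.125). Zc3h12a, which encodes an RNase that degrades inflammatory mRNAs, had 853.0 and 870.2 normalized counts in FAPs and 1725 to 2065 in injured FAPs. For Cfd, with few reads, the distances were larger (Pax1 0.764, Gpat3 0.787, C3 0.843). Among the members themselves, C1ra and Serping1 were the closest pair without Cfd (0.298), and Cfb lay 0.908 to 1.80 from the others.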

How the data were processed

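RNA-seq libraries of ASCs, FAPs, injured FAPs and CD31+CD45+ cells were used. Per the study's methods, paired-end reads went through fastq_illumina_filter 0.1 and FastQC 0.11.9, then HISAT2 2.2.1 (mm10), featureCounts from Subread 2.0.1 (UCSC mm10 annotation) and DESeq2 1.34.0. The authors deposited normalized counts (signal), and how the authors scaled them is not given in the sources used here, nor are the strand setting and the treatment of multi-mapping reads. Dividing by the step of a library made 100% of its values whole reads within 0.1, and 3 reads are worth 2.29 to 4.71, which limits low genes (counting error only). The table lists 26214 genes, 24918 of them with a symbol in GENCODE M21 (GRCm38), including the 57 complement genes; 2 columns are empty.

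Log2(normalized count + 1) was fitted with limma 3.58.1 in R 4.3.3, with a mean per group in a single fit of 8 libraries (5 residual degrees of freedom), the trend option of eBayes, and p-values adjusted by Benjamini-Hochberg for 13601 genes whose mean reached 10. This scale understates the change of low genes. Genes passed with adjusted p below 0.05 and an absolute log2 fold change above 0.58. EdgeR 4.0.16 and DESeq2 1.42.0 on the recovered reads were alternatives. All 3 tools were run on simulated data with far fewer changed genes than passed here, which cannot show their accuracy on these data. Further alternatives were the pseudocount (0.5, 8), the filter (none, a mean of 50), quantile normalization, fits of the compared groups only, a replicate block, each library left out and, chosen after seeing the data, scaling by library total.

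Named were the 6 members, other complement and acute phase genes with a mean of at least 100 (1 left out), and 3 nearest genes per member; Hc, C6, C1q, C3ar1, C5ar1 and Itgb2 below that mean, and Ptprc and the genes at 0 in FAPs among the markers, were picked once their values had been seen. The other lists were markers of stromal, leukocyte, endothelial, adipocyte, mesothelial, skeletal muscle fibre, satellite, smooth muscle or pericyte and Schwann cells. The members and lists were chosen with earlier results of these data known.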

Additional observations from a re-analysis of the deposited data

Results flagged for a closer look

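The CD31+CD45+ library of injured muscle entered no comparison and has no replicate. In 20 of the complement genes its value was above each of the 8 other libraries, and over all genes this was not counted. For C1q these were 2224 normalized counts (C1qa), 2751 (C1qb) and 2652 (C1qc), and for the receptors 459.8 (C3ar1), 533.6 (C5ar1), 6.28 (C5ar2), 15.7 (Cr2), 773.7 (Itgam), 152.2 (Itgax), 789.4 (Itgb2) and 10.99 (Vsig4). Itgam shares 68.7% of its exonic bases with another annotated gene on its strand and is uncertain. Among the lectin, alternative and terminal pathway genes Fcna stood at 76.9, Colec11 at 80.0, Cfp at 602.7 and C9 at 9.42. Few reads lay behind C5ar2 (4), Cr2 (10), Vsig4 (7) and C9 (6). The regulators were Clu at 11320, Vtn at 2602, Cr1l at 2448, Cd59a at 1251 and Susd4 at 43.9. In this library endothelial genes summed to 442660, smooth muscle and pericyte genes to 88052 (Rgs5 40800), leukocyte genes to 36575, adipocyte genes to 13116 and Schwann cell genes to 11812, and their shares in these values were not tested.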

How the results depend on the processing

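Of 321 fold changes of the 6 genes under 18 alternatives, 313 kept their direction and their side of the threshold, and none changed direction. Among the remaining ones was C3 in injured FAPs against FAPs. It had −0.13 after quantile normalization, −0.55 with scaling by library total and −0.79 to −0.54 with each library left out. Another was Cfb in injured FAPs against ASCs, at −0.43 after quantile normalization and −0.30 with scaling by library total. The last were in ASCs against FAPs, Serping1 (0.56 with scaling by library total) and Cfd (2.53 to 3.48 with each library left out). In that comparison scaling by library total put the median of all genes at −0.557. The causes were not tested. With the filter at a mean of 50, fewer of the other complement genes were tested (15), and 11 passed for ASCs versus FAPs (21 before), 11 for FAPs after injury (26 before) and 12 for injured FAPs versus ASCs (24 before). Ptx3 (0.13), Steap4 (0.0488) and Il6 (0.0493) turned direction in injured FAPs against ASCs after quantile normalization, as did Steap4 (0.11) and Il6 (0.0560) with scaling by library total. Of 114 fold changes of the other named genes, 34 moved by over 1.5 times with scaling by library total, 31 with a pseudocount of 8, 20 with edgeR and 17 after quantile normalization, as did 18 of 111 with DESeq2.

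EdgeR and DESeq2 on the recovered reads passed 6450 and 6412 genes for ASCs versus FAPs (limma 6416), 7303 and 7227 for FAPs after injury (limma 7153) and 7000 and 6865 for injured FAPs versus ASCs (limma 6909). For libraries of different groups that share a replicate number, deviations from the group means had correlations of −0.054 to 0.045. With so few libraries per group this cannot tell whether the numbers pair them. With a replicate block 6287, 7046 and 6861 genes passed, and 21, 26 and 24 other complement genes.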

Other observations

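Several complement genes known mainly from the liver had few or no reads here. Mbl1, Mbl2, C8a, C8b, C4bp and Cpn2 were at 0 in all 9 libraries. Cfi, the protease that degrades C3b and C4b, was not tested, and had 21.1, 18.1 and 21.3 normalized counts in ASCs, 0 in both FAP libraries and 1.57, 1.55 and 0 in injured FAPs. C6 was at 0 in the injured FAP libraries, and its mean in ASCs was at least 24.4-fold higher than their floor of 3 reads per library. The gene names in this paragraph were chosen after their values were seen.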
